A study of Tupaia belangeri with 15 samples.

Results

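Müller glia are the radial glia of the vertebrate retina and span its whole thickness, with their somata in the inner nuclear layer. They take up glutamate and turn it into glutamine, buffer potassium and water, take part in the cone visual cycle, and seal the outer limiting membrane. Here they were taken from single-nucleus RNA libraries of 15 TS (Tupaia belangeri) retinas by a rule on raw counts of unique molecular identifiers (UMIs). A nucleus was a member when it held at least 1 UMI of RLBP1, the cellular retinaldehyde-binding protein, and at least 1 UMI of GLUL (glutamine synthetase), SLC1A3 (the glutamate transporter GLAST) or AQP4 (the water channel aquaporin-4). It also had to hold 0 UMIs of PAX2 (astrocytes), GAD1 and GAD2 (GABAergic neurons), RBPMS (ganglion cells) and ARR3 (cones), and at most 1 UMI of CA10, a neuronal gene. Of 119765 nuclei that held over 200 but under 6000 genes with mitochondrial UMIs below 5%, 4187 met the rule, which is 3.50%. They comprised 1626 nuclei of infancy, 1343 of mature and 1218 of senile retinas.

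The retinas came from healthy animals, 5 per stage, with no treatment. Age was 1.4 to 2.1 months in the infancy group, 24.96 to 36 months in the mature group and 85.8 to 86.56 months in the senile group. Infant and mature animals came from the Animal Centre of Kunming Medical University, whereas senile animals were bought from another institute, so the senile stage and the source cannot be told apart. Nuclei had been isolated from frozen retinas, so the counts describe nuclear RNA. The retina was the unit of every test. The study took each retinal sample from a different donor, so p-values measure the spread between animals, with 1 library for each. A retina contributed 148 to 467 member nuclei with 147640 to 1612539 UMIs in all, and the median member held 826 UMIs (Senile 2) to 5466 UMIs (Mature 5). Values per gene are CPM, which are counts scaled to a common total per retina, of the summed member counts of a retina.

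Several libraries stood apart before any comparison was made. Features of lens crystallins (16 features) summed to 29912 CPM in the members of Infancy 4, to 10503 CPM in those of Mature 4 and to 5717 CPM in those of Infancy 5, and to 29.9 to 212 CPM in the other 12 retinas. The other nuclei of the same 3 retinas held them at 5883 to 24859 CPM, and the part of this RNA in other results was not tested apart from leaving these retinas out. The sex given for each animal went against Y-linked RNA (4 features) in 9 of the 15 retinas, so counts from a model without sex are given beside those from the model with it. The headers of the count matrices name Cell Ranger 6.1.2 for 7 retinas (replicates 1 to 3 of infancy and replicates 1 and 2 of the later stages) and 7.0.1 for the other 8. Labelled sex was female for replicates 1 to 3 and male for replicates 4 and 5 of every stage. It thus followed the header version except in Mature 3 and Senile 3, so the sex term and the version can hardly be told apart. The 3 crystallin-rich retinas were all labelled male, with header 7.0.1. Without them infancy keeps only retinas labelled female with header 6.1.2. In such a fit crystallin RNA, labelled sex and version therefore cannot be told apart. Of the 118622 distinct barcodes, 1793 occurred in more than 1 library.

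The label was checked with 14 markers that took no part in the rule, of which 13 were measured. WIF1, a secreted inhibitor of Wnt ligands, stood at 452, 845 and 1959 CPM (lowest, median and highest retina) in members against 18.6, 50.1 and 85 CPM in the other nuclei. For TF (transferrin, an iron carrier) the levels were 507, 1169 and 2741 CPM (lowest, median and highest retina) in members against 35.4, 91.1 and 163 CPM in the other nuclei. CHRDL1, a secreted antagonist of bone morphogenetic proteins (BMPs), was measured at 221, 386 and 531 CPM (lowest, median and highest retina) in members against 8.51, 19 and 45.6 CPM in the other nuclei. In none of these 3 genes did the 2 populations overlap. In all, 12 of the 13 markers were higher in members in 15 of 15 retinas (2-sided exact sign-flip test over retinas, p = 6.1e-05 each, the smallest that 15 retinas allow; 6.6e-05 after Benjamini-Hochberg adjustment over 13). The mean log2 ratio of CPM + 1 was 4.39 ± 0.52 (SD, n = 15) for WIF1, 4.26 ± 0.56 for CHRDL1 and 3.88 ± 0.84 for TF. The potassium channel KCNJ10 reached 3.67 ± 0.45. Among transcription factors of retinal glia and progenitors, the log2 ratio was 2.83 ± 0.97 for HES1, 2.40 ± 0.38 for SOX9 and 1.90 ± 0.39 for SOX2. The exception was RGR, an opsin of retinal pigment epithelium (RPE) and Müller glia, with a log2 ratio of -0.07 ± 0.49 (exact p = 0.764) and at most 2.49 CPM in members. Without called doublets RGR was at 0 in the members of every retina and was called lower than in the other nuclei (log2 ratio -0.20, exact p = 0.00012). The other nuclei then held RGR at a median of 0.122 CPM and at most 0.364 CPM. The members of a retina held at most 1612539 UMIs, so 0 counts cannot show a lower level.

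**Figure D1:**
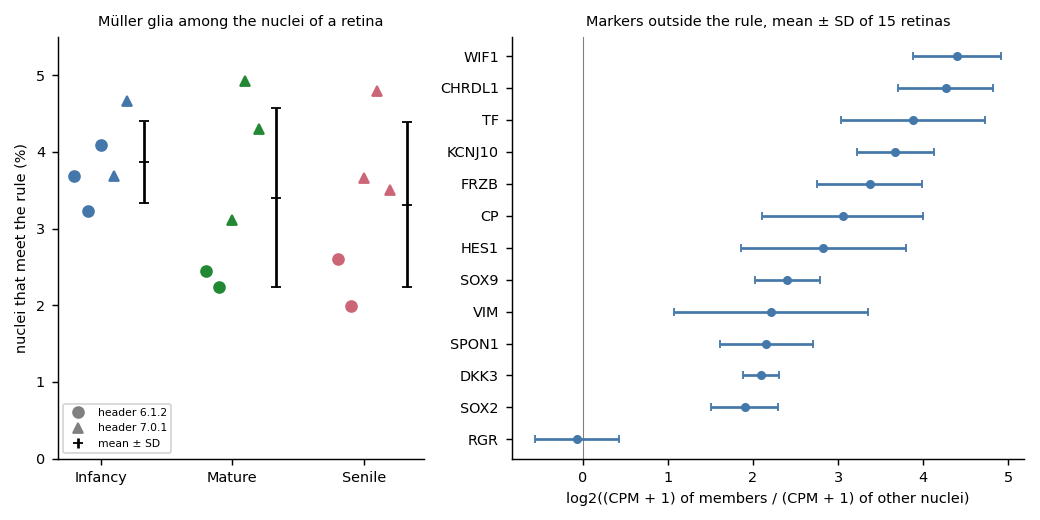
Left, percentage of the nuclei of each retina that met the rule, by stage, with circles and triangles for the 2 Cell Ranger versions of the file headers and the mean ± SD of 5 retinas. Right, log2 ratio of CPM + 1 between members and other nuclei of the same retina (mean ± SD, n = 15) for 13 markers outside the rule, of which RGR alone lies at 0.

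The genes of the rule are described without a test, since they chose the nuclei. Over the 15 retinas RLBP1 stood at 887, 990.5 and 1571 CPM (lowest, median and highest), GLUL at 117, 269 and 482 CPM, SLC1A3 at 1258, 2085 and 2911 CPM and AQP4 at 149.5, 237 and 413 CPM. By stage, in the order infancy, mature and senile, the members held 1052 ± 132, 968 ± 94.1 and 1133 ± 257 CPM of RLBP1 (mean ± SD, n = 5 each). SLC1A3 stood at 2252 ± 692, 1822 ± 379.7 and 2334 ± 552 CPM, GLUL at 357 ± 129, 312 ± 137 and 231 ± 96.4 CPM and AQP4 at 265 ± 88, 198 ± 36.2 and 268 ± 87.8 CPM. Near the threshold, 1626 members (38.8%) had a single RLBP1 UMI, and 510 members held the 1 CA10 UMI the rule allows. All 3 of GLUL, SLC1A3 and AQP4 were seen in 827 members (19.8%). Of the excluding genes, GAD2 was at 0 CPM in the other nuclei of every retina and GAD1 at a mean of 1.56 CPM. These genes could thus exclude few GABAergic neurons.

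A UMI of WIF1, TF or CHRDL1, none of them in the rule, was present in 91.8% (87.5% to 95.8%) of members (median retina, lowest to highest), at a median depth of 1590.0 UMIs. The share was 83.1% (33.3% to 93.1%) in members with 1 RLBP1 UMI and 97.4% (91.7% to 100%) in those with 2 or more. Over all nuclei that were not members the share was 16.3% (6.07% to 40.8%). It was 28.3% (11.3% to 49.4%) in all nuclei with no excluding gene, members included, and 16.7% (5.48% to 40.9%) in all nuclei with one. Just outside the rule, nuclei with RLBP1 but without GLUL, SLC1A3 and AQP4 (1318 nuclei with no excluding gene) held such a UMI in 18.07% (12.3% to 43.3%), and nuclei without RLBP1 but with a second marker (5390 nuclei) in 37% (20.1% to 52.6%). Another 6718 nuclei met both positive criteria but held an excluding gene, with such a UMI in 72% (55.3% to 82.4%) at a median depth of 4294 UMIs. Among all 83656 nuclei with an excluding gene, RLBP1 was seen in 11.3% of nuclei at a median depth of 2684 UMIs. A simulated-doublet score called 221 members (5.28%) and 6.63% of all nuclei.

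Markers of other classes were summed by list in each retina. Cone markers (9 of 11, without ARR3 and 1 that was not measured) stood at 58.8 to 488 CPM in members and 444 to 1603 CPM in other nuclei, rod markers (10 genes) at 19.3 to 142 CPM in members and 119 to 258 CPM in other nuclei, bipolar markers (8 genes) at 101 to 242 CPM in members and 205 to 685 CPM in other nuclei and amacrine markers (6 genes) at 80.7 to 367 CPM in members and 197 to 425 CPM in other nuclei. These 4 sums were lower in members in 15 of 15 retinas. The rule had removed nuclei with ARR3 or with more than 1 UMI of CA10, a bipolar marker in the study. Lower cone and bipolar sums thus follow in part from the selection. Astrocyte markers (8 genes without PAX2) stood at 270.0 to 769.7 CPM in members and 218 to 634 CPM in other nuclei and were lower in members in 3 of 15 retinas. Microglia markers (11 genes) stood at 20 to 79.5 CPM in members and 26.3 to 73.8 CPM in other nuclei, ganglion cell markers (8 genes) at 79.4 to 406 CPM in members and 61.9 to 830.2 CPM in other nuclei, horizontal cell markers (4 genes) at 35.8 to 121 CPM in members and 131 to 271 CPM in other nuclei, and RPE markers (8 genes) at 0 to 615 CPM in members and 5.02 to 157 CPM in other nuclei. The ganglion cell sum in members was carried by SNCG, at a median of 257 CPM against 152 CPM in other nuclei. SLC17A6 (9.8 against 59.7 CPM), NRN1 (7.19 against 36.4 CPM), THY1 (12.5 against 53.4 CPM), NEFM and POU4F1 had lower medians in members. Vascular markers (8 genes) stood at 49 to 154 CPM in members and 24.7 to 41.3 CPM in other nuclei, and were higher in members in 15 of 15 retinas. That sum was carried by the pericyte marker PDGFRB, at a median of 67.2 CPM in members and 4.27 CPM in other nuclei. The endothelial markers were not higher in members, with medians of 14 against 19.6 CPM for PECAM1, 0 against 1.56 CPM for CLDN5, 0 against 3.57 CPM for VWF and 0 against 1.24 CPM for CDH5. In every member 14 of these markers were at 0, among them the rod genes CNGA1 and CNGB1, the cone channel genes CNGA3 and CNGB3, the bipolar genes GRIK1 and CABP5, and S100B, and over the 11911788 UMIs of all members 0 counts allow up to 0.252 CPM (3 counts, counting error only). All 14 were also at or near 0 in the other nuclei. By stage, the astrocyte sum ranged from 316 to 676 CPM in infancy, 387 to 769.7 CPM in mature and 270.0 to 567 CPM in senile retinas. The amacrine sum ranged from 80.7 to 281 CPM, 83.7 to 367 CPM and 121 to 291 CPM in the same order, so the stages overlapped. The cone sum had a median of 114 CPM in infancy (58.8 to 198 CPM), 149 CPM in mature (122 to 183 CPM) and 283 CPM in senile retinas (116 to 488 CPM). Of 4 cone markers tested between infancy and the senile stage none was called, while all 4 had a positive log2 fold change (median 0.89, against -0.01 for all genes) and 2 had an unadjusted p under 0.05. The part of this RNA in the stage results was not tested.

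The share of Müller glia among all nuclei did not differ between stages beyond the spread of the retinas. Members made up 3.69, 3.23, 4.09, 3.69 and 4.66% of the nuclei in the infancy retinas 1 to 5. They made up 2.44, 2.24, 3.12, 4.92 and 4.3% in the mature retinas and 2.6, 1.99, 3.66, 4.8 and 3.5% in the senile retinas. The 3 stages overlapped, and the mature and senile retinas spread over a wider range than those of infancy. The means were 3.87 ± 0.537%, 3.4 ± 1.17% and 3.31 ± 1.08% (SD, n = 5 each). The senile mean minus that of infancy was -0.562 percentage points (2-sided exact permutation test, p = 0.317), the mature mean minus that of infancy -0.467 points (exact p = 0.429), and the senile mean minus the mature mean -0.0944 points (exact p = 0.913). Adjusted over the 3 comparisons these are 0.643, 0.643 and 0.913, where 0.00794 is the smallest p that 5 against 5 retinas allow. Within the libraries of version 6.1.2, the infancy retinas lay at 3.23% to 4.09% (n = 3) and the mature and senile retinas at 2.24% to 2.44% and 1.99% to 2.60% (n = 2 each), without overlap with infancy. Within version 7.0.1 the ranges were 3.69% to 4.66% (n = 2), 3.12% to 4.92% and 3.50% to 4.80% (n = 3 each). When 2 of GLUL, SLC1A3 and AQP4 were required, the senile share minus that of infancy was -0.893 points (exact p = 0.0238, 0.0714 after adjustment).

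Between infancy and the senile stage the RNA of SLC35F1, FBN2, ALCAM, IGF2BP2, SEMA5B and CLRN1 fell in Müller glia and that of CCDC3, LRMDA, PDE1C, HS3ST4, ADRB1 and FGF14 rose. edgeR's quasi-likelihood test with Benjamini-Hochberg adjustment over 8651 genes (stage and sex in the model) called 53 genes higher and 25 lower in the senile stage, 0.902% of those tested (0.613% higher and 0.289% lower), and 688 genes had an unadjusted p under 0.05. Without sex in the model 38 were higher and 10 lower, and without the 3 retinas rich in crystallin RNA 30 were higher and 15 lower, 30 of them among the 78. The lens gene CRYAA was among the 53, and was no longer tested once these retinas were left out. Summed crystallin RNA of members was 29912 CPM in Infancy 4 and at most 212 CPM in senile retinas, so the direction of this call goes against those sums. No gene of the rule was called, but these genes chose the nuclei, so this is no result about them. The median log2 fold change of all genes was -0.01.

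Of the genes that fell, SLC35F1 (a member of the nucleotide sugar transporter family 35 with no settled substrate) stood at 198, 276, 251, 413 and 440.0 CPM in infancy, 74.8, 104, 114, 145 and 75.5 CPM in mature and 60, 28.5, 30.6, 20.5 and 46.2 CPM in senile retinas. FBN2, a fibrillin of extracellular microfibrils, stood at 85.8, 64.4, 114, 99.3 and 171 CPM, 7.74, 5.2, 16.3, 34.8 and 5.39 CPM and 8.19, 14.3, 11.8, 6.84 and 5.49 CPM in the same order. ALCAM, an adhesion molecule of the immunoglobulin superfamily, was measured at 150.2, 113, 169, 159 and 156 CPM, 56.7, 85.8, 82.5, 60.9 and 66.5 CPM and 16.4, 7.13, 28.3, 20.5 and 42.3 CPM. In all 3 genes every infancy retina was above every mature and senile retina. SLC35F1 and ALCAM were also lower in every senile than in every mature retina, but neither was called between those 2 stages. Of all 8651 genes, 82 (0.948%) did not overlap between mature and senile retinas. The senile against infancy test gave a log2 fold change of -3.05 ± 0.29 (SE), adjusted p = 1.16e-05 for SLC35F1, a log2 fold change -3.80 ± 0.48 (SE), adjusted p = 0.000254 for FBN2 and a log2 fold change -2.49 ± 0.26 (SE), adjusted p = 2.99e-05 for ALCAM (edgeR).

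The insulin-like growth factor 2 mRNA-binding proteins, which are abundant in fetal and dividing cells, followed. IGF2BP2 stood at 165, 129, 147, 109 and 136 CPM in infancy, 59.3, 49.4, 64.2, 30.1 and 42.2 CPM in mature and 65.5, 35.7, 30.6, 29.1 and 24.3 CPM in senile retinas (log2 fold change -1.93 ± 0.22 (SE), adjusted p = 6.47e-05, edgeR). Its infancy retinas did not overlap with the others, whereas mature and senile retinas did. IGF2BP3 was lower, at 21.5 to 32.8 CPM in infancy and at most 14.1 CPM in senile retinas (log2 fold change -1.78 ± 0.39 (SE), adjusted p = 0.0315, edgeR). CLRN1 (clarin-1, whose mutation causes a form of Usher syndrome) stood at 379, 354, 446, 327 and 454 CPM, 242, 244, 359, 286 and 380.1 CPM and 248, 149.7, 179, 198 and 166 CPM (log2 fold change -1.05 ± 0.17 (SE), adjusted p = 0.00299, edgeR), with no overlap between infancy and senile retinas. SEMA5B, a transmembrane semaphorin, lay at 91.9 to 121 CPM in infancy, 26 to 87.7 CPM in mature and 27.4 to 54.9 CPM in senile retinas (log2 fold change -1.45 ± 0.27 (SE), adjusted p = 0.00897, edgeR). The histone H2B gene H2BC21 fell by 1.53 on the log2 scale (adjusted p = 0.0231, edgeR), the metalloproteinase gene ADAMTS19 by 1.20 (adjusted p = 0.0345) and SYNE2, which links the nucleus to the cytoskeleton, by 0.94 (adjusted p = 0.0328).

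Of the genes that rose, CCDC3, which encodes a secreted coiled-coil protein, stood at 33.4, 30.2, 26.1, 22.3 and 42.1 CPM in infancy, 134, 156, 95.8, 82.3 and 66.5 CPM in mature and 134, 128, 252, 245 and 223 CPM in senile retinas. LRMDA, a gene linked to melanocyte differentiation, stood at 26.2, 44.3, 48.9, 96 and 85 CPM, 268, 278, 179, 244 and 177 CPM and 120.1, 328, 276, 406 and 252 CPM. HS3ST4, a sulfotransferase that modifies heparan sulfate, was measured at 40.5, 50.3, 71.7, 101 and 81.9 CPM, 59.3, 98.8, 137, 96.4 and 133 CPM and 207, 193, 134, 264 and 231 CPM. CCDC3 and LRMDA were higher in every mature and senile retina than in any infancy retina, whereas in HS3ST4 the mature retinas overlapped with both other stages. The senile against infancy test gave a log2 fold change of 2.69 ± 0.28 (SE), adjusted p = 2.99e-05 for CCDC3, a log2 fold change 2.16 ± 0.29 (SE), adjusted p = 0.000496 for LRMDA and a log2 fold change 1.56 ± 0.22 (SE), adjusted p = 0.000757 for HS3ST4 (edgeR).

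PDE1C, a calmodulin-dependent phosphodiesterase of cyclic nucleotides, stood at 81.1, 149, 87.9, 66.2 and 64 CPM in infancy, 245, 239, 249, 163 and 308 CPM in mature and 150.1, 357, 379, 284 and 163 CPM in senile retinas (log2 fold change 1.58 ± 0.27 (SE), adjusted p = 0.00367, edgeR). The beta-1 adrenergic receptor ADRB1 was low, at 1.56 to 8.05 CPM in infancy, 12.9 to 31.2 CPM in mature and 15.7 to 51.3 CPM in senile retinas (log2 fold change 3.05 ± 0.48 (SE), adjusted p = 0.00184, edgeR). Senile retinas did not overlap with infancy retinas in either gene, although PDE1C came close, since Infancy 2 reached 149 CPM and Senile 1 150.1 CPM. FGF14, an intracellular partner of sodium channels, lay at 340.4 to 584 CPM in infancy and 787 to 1184 CPM in senile retinas (log2 fold change 0.95 ± 0.18 (SE), adjusted p = 0.00897, edgeR). PAPLN (papilin, a matrix protein) rose by a log2 fold change of 1.96 (adjusted p = 0.048) and KIAA1324L by 0.86 (adjusted p = 0.0186, edgeR). Without the crystallin-rich retinas, ADRB1 (adjusted p = 0.0853), PDE1C (0.0946), FGF14 and SEMA5B (0.0553 each) and H2BC21 (0.22) missed the threshold, with the same direction. With stricter membership, SEMA5B missed it when 2 RLBP1 UMIs (adjusted p = 0.102) or 2 of GLUL, SLC1A3 and AQP4 (0.0698) were required, PDE1C under the former (0.0793), H2BC21 under the latter (0.0521) and SYNE2 under both (0.148 and 0.0786). Without the crystallin-rich retinas ADAMTS19, SYNE2, IGF2BP3, PAPLN and KIAA1324L missed the threshold too (adjusted p from 0.102 to 0.265), and all of these 5 except IGF2BP3 also missed it without sex in the model (0.0754 to 0.185). With the Cell Ranger version in place of sex SYNE2 (0.0741) and PAPLN (0.0734) missed it, and with the replicate block SYNE2 (0.0626). With equal totals SYNE2 (0.592) and KIAA1324L (0.101) missed it.

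**Figure D2:**
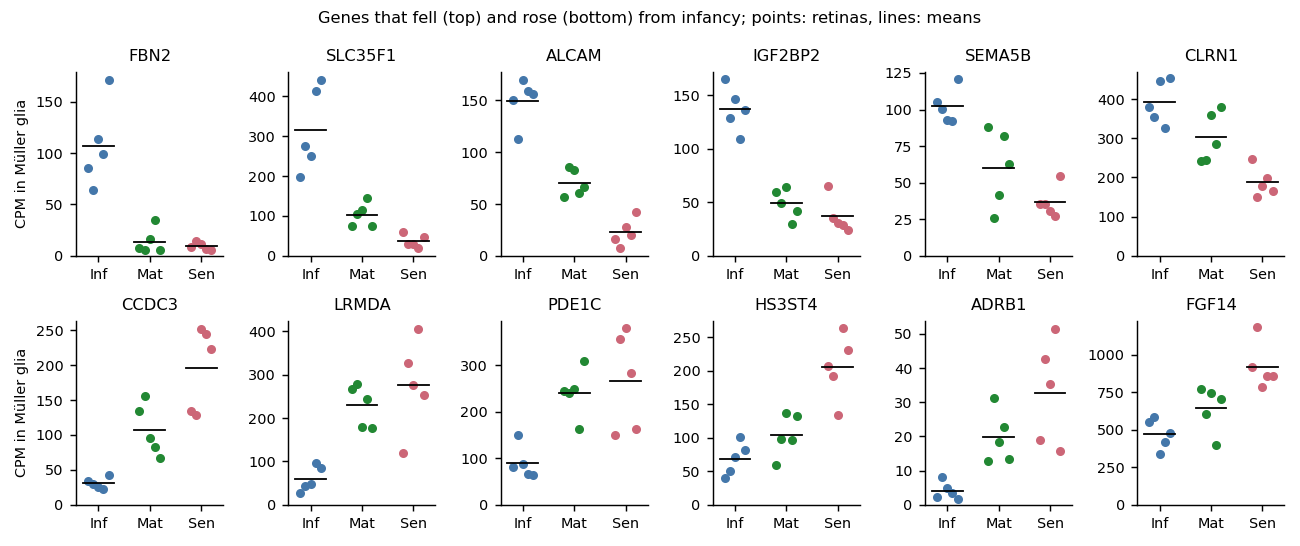
CPM in Müller glia of each retina (points, 5 per stage, replicates 1 to 5 from left to right) and the mean (line) for 6 genes that were lower and 6 that were higher in senile than in infancy retinas. Each y axis is linear and starts at 0. Infancy and senile points do not overlap in any of the 12 genes, which the rule for named genes required.

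The calls of IGF2BP2, ALCAM, LRMDA, CCDC3, HS3ST4, CLRN1 and SLC35F1 between infancy and senile retinas held in each of 13 alternative fits and in 15 of 15 fits that left out 1 retina, and that of FBN2 held in the 12 alternatives that tested it and in 15 of 15. Others rested on single retinas. ADAMTS19 lost its call when Infancy 1, 2, 3 or 5 or Senile 1, 4 or 5 was left out (adjusted p up to 0.14, edgeR), IGF2BP3 without Infancy 2, 3, 4 or 5 or Senile 1, 4 or 5 (up to 0.172) and H2BC21 without Infancy 3 or 4 or Senile 1, 3, 4 or 5 (up to 0.0865). SYNE2 lost it without Infancy 1, 2 or 5 or Senile 1, 4 or 5 (up to 0.151), KIAA1324L without Infancy 2 or 4 or Senile 1 (up to 0.0617), and PAPLN in all but 3 of the 15 (up to 0.151). In the members of the 2 largest clusters described further on, the log2 fold change was -5.28 for SLC35F1, -5.84 for FBN2, -3.56 for ALCAM, 3.40 for CCDC3 and 3.17 for PDE1C, each farther from 0 than in all members. Senile 2 held only 27 nuclei of these clusters, and the other retinas 144 (Mature 5) to 393 (Mature 4). FBN2 and ALCAM were already low in all senile members, so the size of their fold changes rests on few counts. For FBN2 the log2 fold change was -2.98 without the crystallin-rich retinas. The retinas of both stages did not overlap in 174 of the 8651 genes (2.01%), of which 56 were among the 78 called.

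From infancy to the mature stage 47 genes were called higher and 31 lower, 0.902% of the 8651 tested (0.543% and 0.358%), and 882 had an unadjusted p under 0.05. Without sex in the model 25 were higher and 7 lower. Leaving out the crystallin-rich retinas gave 20 higher and 53 lower, 22 of them among the 78, so the balance of directions changed when these libraries were left out. That fit keeps only infancy retinas labelled female with header 6.1.2, so crystallin RNA, sex and version cannot be told apart in it. FBN2 (log2 fold change -2.79, adjusted p = 0.00214), SLC35F1 (-1.58, 0.00405), IGF2BP2 (-1.52, 0.0015) and ALCAM (-1.09, 0.0318) were already lower in mature retinas (edgeR). CCDC3 (1.72, 0.00516), LRMDA (1.93, 0.00327), PDE1C (1.48, 0.0102) and ADRB1 (2.36, 0.0275) were already higher. Both comparisons use the same infancy retinas, so these values are set side by side only. The calls of ALCAM (adjusted p up to 0.0954 when Infancy 1, 3 or 4 or Mature 1, 4 or 5 was left out) and ADRB1 (up to 0.0954 without Infancy 1, 3, 4 or 5 or Mature 2 or 4) rested on single retinas. Without the crystallin-rich retinas ALCAM (adjusted p = 0.101), PDE1C (0.0648) and ADRB1 (0.19) missed the threshold, and ALCAM also missed it without sex in the model (0.0592), without called doublets (0.0605) and with equal totals (0.194). When 2 of GLUL, SLC1A3 and AQP4 were required, ALCAM (0.0914) and ADRB1 (0.0728) missed it as well.

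LRRTM4, an organizer of excitatory synapses, stood at 327, 163, 439.7, 387 and 425 CPM in infancy, 668, 733, 820.2, 778 and 1072 CPM in mature and 745, 549, 335, 291 and 533 CPM in senile retinas. Every mature retina was above every infancy retina (log2 fold change 1.22 ± 0.26 (SE), adjusted p = 0.0328, edgeR), while the senile retinas overlapped with both stages. FREM1, a basement membrane protein, lay at 219 to 329 CPM in infancy and 393 to 794 CPM in mature retinas (log2 fold change 1.12 ± 0.24 (SE), adjusted p = 0.0328, edgeR). INTU, a gene of cilium assembly (log2 fold change 2.18, adjusted p = 0.0449), and DTX4, a regulator of Notch signalling (0.93, 0.0487), were also higher. LRRTM4 lost its call in 7, FREM1 in 7, INTU in 10 and DTX4 in 13 of the 15 fits with 1 retina left out, at adjusted p up to 0.0956, 0.0964, 0.153 and 0.14. All 4 also missed the threshold without sex in the model (adjusted p = 0.0592, 0.0549, 0.191 and 0.0742 in the same order) and without the crystallin-rich retinas (0.0638, 0.101, 0.233 and 0.146). With the replicate block in place of sex LRRTM4 (0.0512), INTU (0.0949) and DTX4 (0.0973) missed it, and with the Cell Ranger version INTU (0.0941) and DTX4 (0.0621). The retinas of both stages did not overlap in 165 genes (1.91%).

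Between mature and senile retinas no gene was called higher and 7 were called lower (0.0809% of 8651; 621 genes at an unadjusted p under 0.05), and 82 genes (0.948%) did not overlap between the stages. DESeq2 called 9 higher and 18 lower, the fit without the crystallin-rich retinas 3 higher and 6 lower, and the edgeR fits without sex and with the replicate block in place of sex called none. ADAMTS19 stood at 670.1, 606, 642, 648 and 1166 CPM in infancy, 1063, 697, 854, 1529 and 1231 CPM in mature and 232, 85.6, 455, 476 and 343 CPM in senile retinas, so the senile retinas lay below all others (log2 fold change -1.71 ± 0.27 (SE), adjusted p = 0.0446, edgeR). NRP1, a co-receptor of semaphorins and vascular endothelial growth factors, lay at 129 to 309.7 CPM, 242 to 354 CPM and 57 to 187 CPM in the same order (log2 fold change -1.22 ± 0.22 (SE), adjusted p = 0.046, edgeR). The plasma membrane calcium pump gene ATP2B4 lay at 39 to 92.9 CPM in mature and 16.4 to 32.5 CPM in senile retinas (log2 fold change -1.51 ± 0.26 (SE), adjusted p = 0.0446). COLGALT2, a galactosyltransferase of collagen (-0.93, 0.0446), and CP52B (-0.93, 0.046) were lower as well. These counts moved with single retinas: leaving out Infancy 1 or 3, Mature 1 or 3, or Senile 1 or 4 left 0 called genes, Infancy 4 or Senile 3 or 5 left 1, Mature 2 or Senile 2 left 2, and Mature 5 gave 12.

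The genes of glial tasks are described by list, against the 0.902% of all 8651 genes that were called between infancy and the senile stage. In lists of this length a count of 0 is near that share, so it is no result about the list. Of the visual cycle and retinoid list 0 of 8 tested genes were called (median log2 fold change -0.16, against -0.01 for all genes), of glutamate, GABA and amino acid handling 0 of 13 (-0.07), and of ion, water and pH regulation 0 of 15 (0.05). GLUD1, which oxidizes glutamate, stood at 679.6 ± 118 CPM in infancy and 597 ± 108 CPM in senile retinas (log2 fold change -0.18, adjusted p = 0.898, edgeR). SLC6A11, a GABA transporter, stood at 717 ± 133 and 704 ± 195 CPM (log2 fold change -0.03, adjusted p = 1). KCNJ10, the Kir4.1 potassium channel, stood at 122 ± 58.7 and 102 ± 42.9 CPM (log2 fold change -0.27, adjusted p = 0.9, edgeR; mean ± SD, n = 5 each throughout). The glutamine transporter SLC38A3 had means of 155 ± 67.2, 114 ± 24.7 and 92.6 ± 36.8 CPM over the 3 stages (log2 fold change -0.75, adjusted p = 0.223). For these lists a change of 2-fold would often be missed: in simulated data of this design, with the same spread for every gene, the fit found 88% of 4-fold and 38% of 2-fold changes.

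In energy metabolism 1 of 16 tested genes was called (median -0.09). SLC2A1, the glucose transporter GLUT1, stood at 460.2, 294, 381, 118 and 168 CPM in infancy, 261, 234, 159, 171 and 173 CPM in mature and 142, 185, 155, 78.7 and 83.1 CPM in senile retinas (log2 fold change -1.10 ± 0.22 (SE), adjusted p = 0.0144, edgeR). The stages overlapped, the 3 infancy retinas of version 6.1.2 were the highest, and the call was lost without sex in the model (adjusted p = 0.22), with the Cell Ranger version in place of sex (0.0853) and without Senile 1 or Senile 5 (up to 0.0581). It was also lost when 2 RLBP1 UMIs (0.0512) or 2 of GLUL, SLC1A3 and AQP4 (0.0842) were required. HK1 (hexokinase, 411 ± 57 and 345 ± 94.3 CPM), LDHA (lactate dehydrogenase, 94.2 ± 39.7 and 89.4 ± 26.2 CPM) and the monocarboxylate transporter SLC16A1 (240.0 ± 42.5 and 186 ± 21.5 CPM) were not called.

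In the extracellular matrix list 1 of 36 tested genes rose and 3 fell (median -0.20), the latter being FBN2, ADAMTS19 and CSPG5. EFEMP1, the fibulin whose mutation causes a macular dystrophy with drusen, stood at 107, 167, 164, 247 and 286 CPM in infancy, 384, 221, 372, 655 and 430.4 CPM in mature and 355, 249.6, 271, 525 and 357 CPM in senile retinas. Its stages overlapped, since Infancy 5 exceeded Senile 2 and 3 (edgeR log2 fold change 0.88 ± 0.19 (SE), adjusted p = 0.0328), and the call was lost without sex in the model (adjusted p = 0.387), with the Cell Ranger version (0.183) or the replicate block (0.0619) in its place, with equal totals (0.386), without the crystallin-rich retinas (0.0874) or without Infancy 1, 2, 3 or 4 or Senile 1, 3 or 4 (up to 0.111). CSPG5, a brain proteoglycan, stood at 429, 298, 329, 106 and 140.4 CPM in infancy and 115, 143, 129.6, 82.1 and 69 CPM in senile retinas (log2 fold change -1.18 ± 0.26 (SE), adjusted p = 0.0326, edgeR). Here Infancy 4 and 5 lay within the senile range, and the call was lost without sex (adjusted p = 0.234), with the Cell Ranger version in its place (0.137) and in 8 of the 15 fits with 1 retina left out (Infancy 1, 2 or 3 or any senile retina, up to 0.114). It was also lost when 2 RLBP1 UMIs (0.178) or 2 of GLUL, SLC1A3 and AQP4 (0.0521) were required, and in the members of the 2 largest clusters described further on (0.053).

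Of genes linked to reactive gliosis 0 of 9 tested were called, beside 0.902% of all genes (median -0.04). VIM, the intermediate filament vimentin, stood at 228 ± 27 CPM in infancy and 189.5 ± 55.9 CPM in senile retinas (log2 fold change -0.32, adjusted p = 0.862, edgeR), and CP (ceruloplasmin, a copper-carrying ferroxidase) at 115 ± 23.2 and 162 ± 22.8 CPM (log2 fold change 0.50, adjusted p = 0.266). GFAP, the filament of reactive glia, was too low for the fit. After thinning every nucleus to 1000 UMIs it was seen in 0.612%, 0.495% and 0.649% of members in the median infancy, mature and senile retina, against 0.20% of other nuclei. Of the progenitor and neurogenic list 0 of 27 tested genes rose and 2 fell (median -0.12), both of them the IGF2BP genes above. SOX9 (43.8 ± 8.0 and 37.2 ± 12.5 CPM), PAX6 (643 ± 76.3 and 594 ± 96.9 CPM), LHX2 (73.1 ± 8.0 and 78.4 ± 14.8 CPM) and NFIA (1123 ± 137 and 1192 ± 185 CPM) were not called. None of 13 cell division genes was high enough to be tested at any stage.

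In the lists that follow, the counts of 0 again stand beside a share of 0.902% over all genes. In the Wnt list 0 of 14 tested genes were called (median -0.16). WIF1 stood at 1441 ± 642, 961 ± 322 and 779 ± 228 CPM in the 3 stages (log2 fold change -0.82, adjusted p = 0.0703, edgeR), which missed the threshold. Of the BMP and TGF-beta list 0 of 15 were called (median -0.02), of cell polarity and junctions 0 of 18 (0.01), of lipid metabolism 0 of 16 (-0.39), of metal and redox genes 0 of 14 (0.09), of senescence genes 0 of 6 (0.04), of genes linked to vessels 0 of 12 (0.05) and of genes linked to synapses 0 of 34 (0.03). CRB1, a polarity protein of the outer limiting membrane, stood at 1319 ± 75.6 and 1454 ± 140.4 CPM (log2 fold change 0.14, adjusted p = 0.9, edgeR). In the list of growth factors and their receptors 1 of 15 was called, FGF14 (median -0.15). PDGFRA, a receptor of platelet-derived growth factors, stood at 99 ± 30.6, 68.9 ± 11.7 and 55.4 ± 18.9 CPM (log2 fold change -0.83, adjusted p = 0.0716, edgeR). The 122 Müller glia genes that the study selected on these same samples had 121 tested members, of which 1 (FGF14) was called and 100 had a positive fold change (median 0.13); this list is not independent of the data. A single gene of the immediate early list could be tested and was not called. In the comparison of mature with infancy retinas, beside 0.902% of all genes, the called genes of the lists were EFEMP1 and FBN2 (matrix, 36 tested), IGF2BP2 (progenitor, 27 tested) and LRRTM4 (synapse list, 34 tested). The call of EFEMP1 there was lost without sex in the model (adjusted p = 0.152) and with the Cell Ranger version in its place (0.0524). Between senile and mature retinas, beside 0.0809% of all genes, they were ADAMTS19 (matrix) and NRP1 (vessels, 12 tested).

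Much of the upward count came from features without a gene symbol of their own (long noncoding, antisense, unnamed and numbered features). They made up 42 of the 53 higher and 8 of the 25 lower features between infancy and the senile stage, and 27.3% of all features tested. Every numbered root given here held at least 1 called copy. The shares below therefore describe these roots and are no test against the 0.613% of all genes called higher. Numbered copies of ZFP39 (a zinc finger gene) were higher in 7 of 17 tested, of ZFP809 (a zinc finger repressor of retroviruses) in 6 of 8, of VMN2R116 (a vomeronasal receptor) in 5 of 9 and of ENV (a retroviral envelope) in 4 of 5. The 3 copies of MIA3 and the 2 copies of UGGT2 were higher as well, and no copy of these 6 roots was lower. The other numbered roots examined had few calls, with 1 of 49 LORF2, 1 of 9 POL and 1 of 4 LIN1 copies higher, and the median log2 fold change over the LORF2 copies was -0.01. The median log2 fold change was 0.99 over the ZFP39 copies, 2.08 over ZFP809, 1.86 over VMN2R116 and 2.54 over ENV. Copies share sequence, so reads can be split between them, and they are not independent of each other.

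The stage differences were also seen as shares of nuclei at equal depth. With every nucleus thinned to 1000 UMIs (3940 members kept, 247 shallower members left out), SLC35F1 was seen in a median of 20.3%, 8.33% and 3.09% of members in infancy, mature and senile retinas (unthinned 30.6%, 18.7% and 3.09%). In other nuclei thinned alike the medians were 11.7%, 10.1% and 9.7%, so the senile members lay below them. Most members of Senile 2 were left out by the thinning, since its median member held 826 UMIs. A single nucleus made up 2.38% of the members that retina kept. ALCAM was seen in 11.7%, 5.22% and 2.27% of members and IGF2BP2 in 12.5%, 5.56% and 2.38%. In the other direction, CCDC3 was seen in 2.55%, 10.9% and 16% of members, LRMDA in 4.43%, 13.5% and 19% and PDE1C in 4.89%, 19% and 22.4%. In other nuclei the medians were 3.3%, 2.5% and 2.6% for ALCAM, 1.9%, 3.9% and 2.5% for CCDC3 and 2%, 3.5% and 3.8% for LRMDA. For PDE1C they were 22.2%, 25.7% and 22%. For PDE1C the median share of senile members thus came to that of the other nuclei, with senile retinas at 6.19% to 33.3% in members and 11.5% to 25.9% in other nuclei. Its mean CPM stayed lower in members, as given below. WIF1 was seen in 71.2%, 53.9% and 47.6% of members, against 3.6% of other nuclei over all retinas.

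Whether these changes differed from those of the other nuclei was tested by an interaction of stage with population, members against the pooled other nuclei of the same retinas. This pool holds the 6718 nuclei that met both positive criteria but held an excluding gene. Stage changes in astrocytes were not tested, so a call does not show a change to be particular to Müller glia. Of 24093 genes, the senile minus infancy change was called larger (more positive) in members for 21 and smaller for 25, 0.191% of those tested (0.0872% and 0.104%), and 1624 had an unadjusted p under 0.05. The mature minus infancy change differed for 18 genes (12 larger and 6 smaller, 0.0747%, or 0.0498% and 0.0249%), with 1400 at an unadjusted p under 0.05. The median difference over all genes was -0.06 and 0.01 on the log2 scale. Without a term for sex in each population, the senile minus infancy change was called larger for 7 and smaller for 5 genes, and the mature minus infancy change for 5 and 4. With other nuclei limited to those without a UMI of RLBP1, WIF1, TF and CHRDL1, 33 and 21 genes were called for these changes. Of these, 25 and 16 were shared with the main fit, and 15 of 36 named interaction calls were lost. In this fit, scaled over both populations, SLC35F1 stood at 288 ± 105, 97.1 ± 28.3 and 32.1 ± 14.1 CPM in members and 206 ± 30.5, 171 ± 36.1 and 174 ± 34.9 CPM in other nuclei (infancy, mature and senile, mean ± SD, n = 5 each). FBN2 stood at 97.8 ± 41.2, 13.2 ± 11.9 and 7.84 ± 2.42 CPM in members and 62.4 ± 18.13, 78.4 ± 69.1 and 76.4 ± 24.8 CPM in other nuclei. ALCAM stood at 135 ± 21.7, 66.7 ± 13.1 and 20.3 ± 12.4 CPM in members and 46.5 ± 10.5, 37.5 ± 5.36 and 35.8 ± 4.24 CPM in other nuclei. By stage means, members lay above the other nuclei in infancy and below them in the senile stage in each of these genes. Single retinas departed from this: members lay below the other nuclei for FBN2 in Infancy 1 and 2 and for SLC35F1 in Infancy 1, and above them for ALCAM in Senile 5.

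The difference of the log2 changes, senile minus infancy, was -4.29 ± 0.39 (SE), adjusted p = 9.34e-12 for FBN2, -2.89 ± 0.26 (SE), adjusted p = 9.34e-12 for SLC35F1 and -2.19 ± 0.25 (SE), adjusted p = 1.69e-08 for ALCAM (edgeR, adjusted over 24093 genes). CCDC3 stood at 28 ± 7.85, 99.3 ± 27.8 and 172 ± 61.1 CPM in members and 32 ± 8.83, 34.6 ± 13.3 and 32.9 ± 12.2 CPM in other nuclei, a difference of changes of 2.61 ± 0.24 (SE), adjusted p = 2.59e-11 (edgeR). For HS3ST4 it was 1.55 ± 0.19 (SE), adjusted p = 2.79e-07, for PDE1C 1.69 ± 0.23 (SE), adjusted p = 2.79e-06 and for ADRB1 2.94 ± 0.41 (SE), adjusted p = 5.72e-06 (edgeR). HS3ST4 and PDE1C were lower in members than in other nuclei at every stage mean, and the difference came from their rise in members. H2BC21 had a difference of -1.48 ± 0.26 (SE), adjusted p = 0.00137. These 8 genes were called in 15 of 15 fits with 1 retina left out and without the sex term. LRMDA (1.11, adjusted p = 0.0294), KIAA1324L (0.90, 0.0141) and SYNE2 (-0.99, 0.0212) were also called. Without the sex term these 3 missed the threshold (adjusted p = 0.196, 0.0739 and 0.177). Another 8 named stage genes were not called here. The difference was 1.00 for IGF2BP2 (adjusted p = 0.0914), 0.66 for FGF14 (0.107), -0.67 for ADAMTS19 (0.157) and -1.37 for IGF2BP3 (0.266). It was -0.68 for CLRN1 (0.447), -0.50 for SEMA5B (0.834), 0.64 for PAPLN (0.9) and 0.02 for EFEMP1 (1). IGF2BP2 was seen in 4.7%, 0.70% and 0.50% of thinned other nuclei in infancy, mature and senile retinas.

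**Figure D3:**
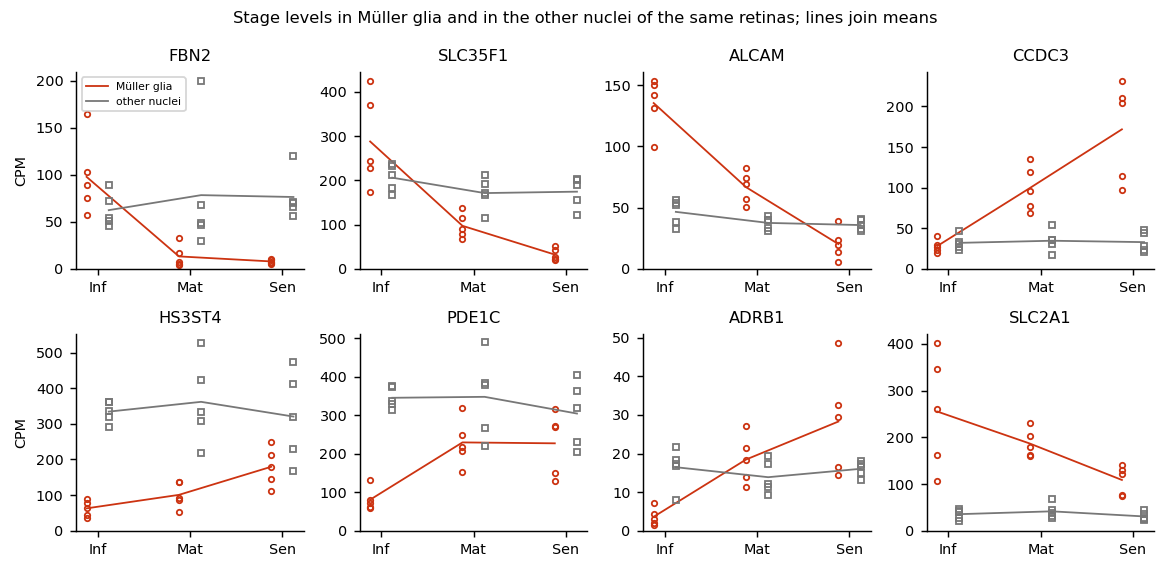
CPM of 8 genes in Müller glia (circles) and in the other nuclei of the same retinas (squares), 5 retinas per stage, on linear axes from 0; lines join stage means. In FBN2, SLC35F1 and ALCAM the Müller glia line starts above and ends below the other nuclei, whereas in CCDC3 and ADRB1 it starts below and ends above them.

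Further genes whose senile minus infancy change was smaller in members than in other nuclei included SLC2A1 (-0.94, adjusted p = 0.0178), CSPG5 (-0.86, adjusted p = 0.0346), the glutamine transporter SLC38A3 (-0.89, adjusted p = 0.0383), the urea transporter SLC14A1 (-1.26, adjusted p = 0.00956) and the calcium-binding S100A6 (-1.33, adjusted p = 0.0133; edgeR). SLC14A1, which also marks astrocytes, stood at 281 ± 102, 249.5 ± 109.5 and 93.4 ± 76.7 CPM in members and 51.5 ± 12.8, 44 ± 14.6 and 39.9 ± 16.9 CPM in other nuclei. It was called in 15 of 15 fits with 1 retina left out but not without the sex term (adjusted p = 0.0893); the others missed the threshold without the sex term too, at adjusted p from 0.177 to 0.196, and were called in 10 to 14 of the 15 fits with 1 retina left out. Beside 0.191% of all 24093 genes called (0.104% with a smaller change), these calls made up 1 of 14 transmitter genes (SLC38A3) and 1 of 21 energy genes (SLC2A1), and 3 of 48 matrix genes had a smaller change (FBN2, CSPG5 and the collagen COL4A6). A larger change in members was also called for genes whose mean stood below that of the other nuclei at every stage. ADARB2, an interneuron gene, stood at 179.9 ± 39.5, 353 ± 205 and 305 ± 160.0 CPM in members and 1619 ± 68.3, 1616 ± 537 and 1335 ± 447 CPM in other nuclei (0.95, adjusted p = 0.0383), and VWC2 (1.10, adjusted p = 0.0212) and the neurotrophin receptor NTRK3 (0.91, adjusted p = 0.0331) were of the same kind. All 3 missed the threshold without the sex term (adjusted p = 0.131 to 0.455) and were called in 9 to 11 of the 15 fits with 1 retina left out. In the members of the 2 largest clusters alone (1 and 2, described further on) the difference was -1.48 for ADARB2 and -0.59 for VWC2, while FBN2 (-6.38), SLC35F1 (-5.14) and CCDC3 (3.36) had the same sign as in all members.

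For the mature minus infancy change, FBN2 (-2.68, adjusted p = 1.01e-07), SLC35F1 (-1.22, 0.00222), ADRB1 (2.65, 0.000113), CCDC3 (1.67, 5.32e-05) and PDE1C (1.57, 3e-05) again differed between members and other nuclei (edgeR). NMNAT3, an enzyme of NAD synthesis, stood at 216 ± 50.5, 114 ± 81.3 and 159 ± 109.7 CPM in members and 46.5 ± 11.2, 59.2 ± 36.3 and 52.9 ± 24.3 CPM in other nuclei, a difference of changes of -1.29 ± 0.19 (SE), adjusted p = 7.9e-05. LRRTM4 stood at 317 ± 108, 779 ± 207 and 420.0 ± 153 CPM in members and 759 ± 93.3, 869 ± 178 and 793 ± 125 CPM in other nuclei, a difference of 1.14 ± 0.19 (SE), adjusted p = 0.000652. Both were called in 15 of 15 fits with 1 retina left out and without the sex term, under which SLC35F1 missed the threshold (adjusted p = 0.254).

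Astrocytes are the other macroglia of the retina, and the 2 glial types were compared within retinas. A gate on PAX2 gave 481 astrocyte nuclei, and 14 retinas with at least 10 of them entered a fit with the retina as a block, without the genes of either gate. Of 2798 genes tested, 742 were higher in Müller glia and 691 higher in astrocytes, 51.2% of those tested (26.5% and 24.7%). By the rule for named genes, the largest differences towards Müller glia were those of OTOG (otogelin, log2 fold change 7.14), CLRN1 (7.01), CHRDL1 (6.82), the metalloproteinase ADAMTS12 (6.82), WIF1 (6.55), FREM1 (6.51), the sphingosine kinase SPHK1 (5.87), RERG (5.77), ADAMTS19 (5.36) and TM4SF1 (5.28). Each was higher in Müller glia in 14 of 14 retinas; CLRN1, for example, stood at 346 ± 122 against 3.14 ± 8.04 CPM (Müller glia against astrocytes, mean ± SD, n = 14). Towards astrocytes they included those of the transcription factor PAX8 (-7.12), the axonemal dynein DNAH5 (-6.91), SEMA3C (-6.69), LMO3 (-6.44), the chloride channel CFTR (-5.99), PDGFD (-5.93), BMPER (-5.70), PAQR8 (-5.54) and FHDC1 (-5.49), each higher in astrocytes in 14 of 14 retinas. The highest adjusted p of the genes named here was 3.03e-11 (edgeR).

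The lists of this comparison stand beside 26.5% of all tested genes higher and 24.7% lower, so counts near these shares are no result about a list. By task, SLC7A11, the cystine and glutamate exchanger, stood at 319.7 ± 49.7 against 16.5 ± 28.1 CPM (log2 fold change 4.35) and GLUD1 at 779 ± 121 against 65.6 ± 42.5 CPM (3.66). In the transmitter list 3 of 6 tested genes were higher and 1, the GABA transporter SLC6A11 (-0.29), was lower. RDH10, a retinol dehydrogenase, was the retinoid gene that was called, at 148 ± 43.6 against 12.2 ± 15.5 CPM (3.61). SLC2A1 stood at 243 ± 131 against 13.2 ± 16.3 CPM (4.14), and with HK1 (2.14), PFKP (1.34), SLC16A1 (0.62) and PFKM (0.52) 5 of 8 energy genes were higher, while PC (-0.97) and GBE1 (-0.55) were lower. Ion and water genes went both ways, 5 of 10 higher and 5 lower. The dystrophin gene DMD (1.57) and the cation channel TRPM3 (2.31) were higher in Müller glia, whereas the bicarbonate cotransporter SLC4A4 stood at 335 ± 107 against 3679 ± 695 CPM (-3.51) and KCNJ10 at 120.2 ± 53 against 219 ± 92.3 CPM (-0.87).

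Of the polarity and junction genes 8 of 11 tested were higher in Müller glia and 0 lower (median log2 fold change 0.80), beside 26.5% higher and 24.7% lower of all genes in this fit. CRB1 stood at 1626 ± 175 against 445 ± 171 CPM (1.90), NECTIN3 at 282 ± 86.8 against 33.7 ± 52.5 CPM (2.87) and MPDZ at 367 ± 49.2 against 148 ± 51.9 CPM (1.32), all in 14 of 14 retinas. Of the BMP and TGF-beta list 5 of 7 were higher and 0 lower, beside the same shares, among them SMAD9, a transducer of BMP signals, at 608 ± 113 against 27.8 ± 30.7 CPM (4.38). Among growth factors and receptors 8 of 12 were higher, such as GFRA1, a receptor of glial cell line-derived factor (3.40), PTN (pleiotrophin, 3.38) and EGFR (3.69), and 2 were lower, NTRK2 (-4.18) and ERBB4 (-3.84). Genes that act on vessels were split, 5 of 9 higher and 4 lower. FLT1, a receptor of vascular endothelial growth factor, stood at 484 ± 94 against 39.5 ± 33.8 CPM (3.46), whereas VEGFA itself stood at 103 ± 51.3 against 725 ± 391 CPM (-2.75). MERTK, a receptor for engulfment, was higher in Müller glia (1.85) and MEGF10, another such receptor, lower (-0.61). VIM (0.08, adjusted p = 0.742) and NLGN1 (-0.01, 0.961) were not called. Of the identity markers 5 of 10 were higher in Müller glia and 4 lower, the latter being HES1 (-0.97), KCNJ10, FRZB (-0.58) and SPON1 (-0.52).

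**Figure D4:**
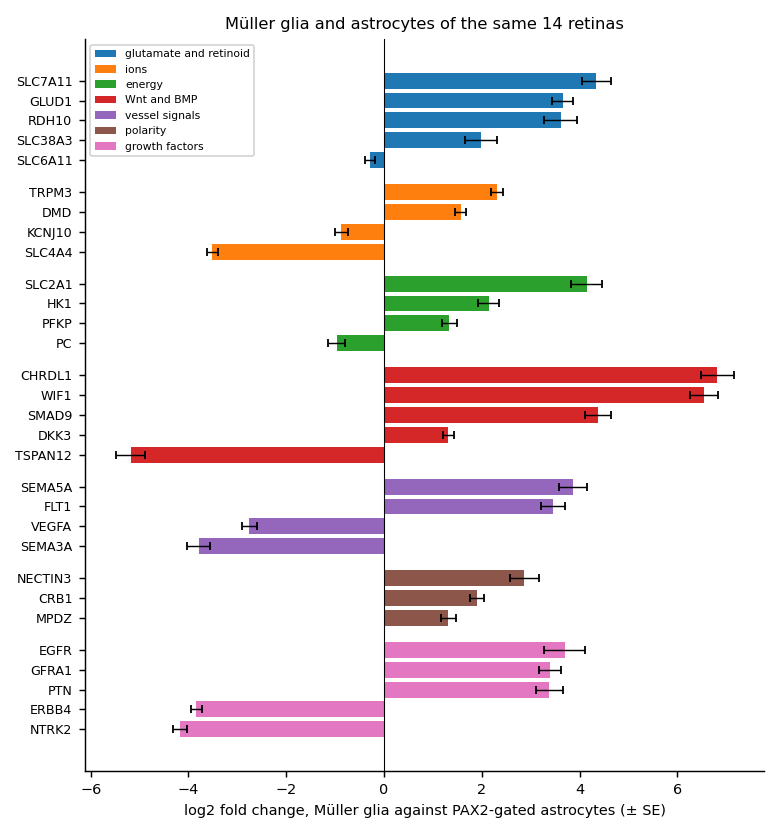
Log2 fold change (± SE) between Müller glia and PAX2-gated astrocytes of the same 14 retinas for 30 genes of the lists, grouped by task; positive values are higher in Müller glia. The growth factor, Wnt and BMP, and vessel groups hold bars in both directions, while the 3 polarity genes shown lie between 1.32 and 2.87.

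The members were not uniform. Clustering the 3940 members with at least 1000 UMIs, after centring per retina and without the genes of the rule, gave 6 clusters, which are described by their leading genes without a test since those genes formed them. Cluster 1 (1958 nuclei, 49.7%) was led by SFRP1, a secreted Wnt inhibitor (369 against 117 CPM in the rest), TM4SF1, a membrane protein (774 against 289 CPM), ID3 (102 against 37.7 CPM) and the laminin chain LAMA1 (161 against 67.5 CPM). Cluster 2 (1308 nuclei, 33.2%) was led by the transcription factor FOXP2 (193 against 38.4 CPM), MCTP1 (759.8 against 199 CPM), the phospholipase receptor PLA2R1 (239.9 against 67.3 CPM) and ADAMTS19 (1416 against 478 CPM). Both held nuclei of all 15 retinas and the Müller glia markers at 5424 and 5953 CPM. Their median depths were 1798 and 2880.0 UMIs. Since ADAMTS19 was called between stages, the sizes of clusters 1 and 2 were not compared between stages.

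The 4 smaller clusters held RNA of other classes. Cluster 3 (543 nuclei of 15 retinas) was led by GALNTL6 (1713 against 42.6 CPM), the sodium-calcium exchanger SLC8A1 (1524 against 44.6 CPM), the potassium channel KCNC2 (864 against 21.7 CPM) and DSCAM (1328 against 45.1 CPM). Its amacrine markers summed to 458 CPM against 67.4 CPM in the rest, and its Müller glia markers to 2220.0 CPM. It held 8.56% to 18.5% of the clustered members of infancy retinas, 5.87% to 21.3% in mature and 15.3% to 33.3% in senile retinas. The highest share was that of Senile 2, with 14 nuclei, and the stages were not tested for this share. Cluster 4 (54 nuclei) was led by PRKCQ (2121 against 14.5 CPM) and MEGF11 (1199 against 12.5 CPM), with amacrine markers at 712 CPM. Cluster 5 (53 nuclei, 66.0% of them from 1 retina) was led by SLC26A4 (1884 against 15.3 CPM), ENPP2 (3534 against 50.3 CPM) and RPE65, the isomerase of the visual cycle in RPE (545 against 2.27 CPM). Cluster 6 (24 nuclei) was led by PAX8 (667 against 0.857 CPM), DNAH5 (624 against 4.37 CPM) and SLC14A1 (5572 against 179.7 CPM), with astrocyte markers at 9186 CPM against 398 CPM. With the members of clusters 1 and 2 only, 54 genes were higher and 34 lower in senile than in infancy retinas, and 45 higher and 20 lower in mature than in infancy retinas.

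**Figure D5:**
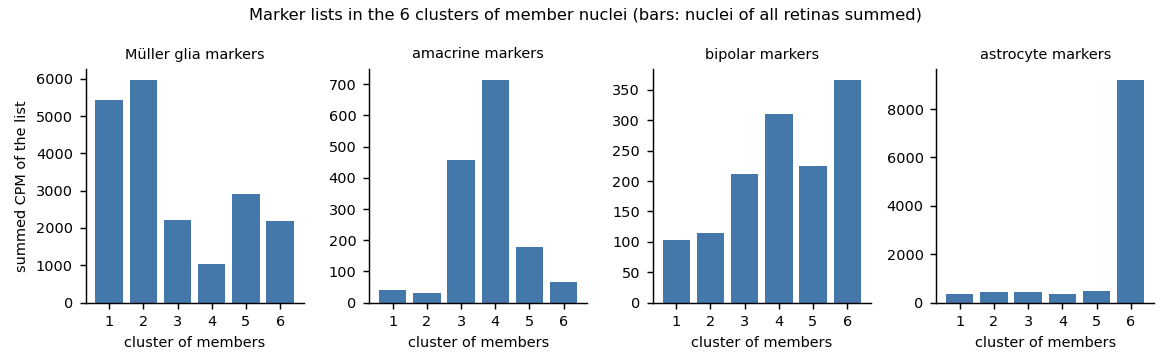
Summed CPM of 4 marker lists in each of the 6 clusters of member nuclei (bars, nuclei of all retinas summed, y axes from 0 and different between panels). Müller glia markers are highest in clusters 1 and 2, amacrine markers in clusters 3 and 4 and astrocyte markers in cluster 6.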

How the data were processed

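Per the labels and the methods, nuclei of 15 frozen TS retinas were sequenced with 10x Genomics chemistry (the labels and the methods name different kit versions), and UMIs per feature of the TS_3.0 genome were counted by the authors with Cell Ranger. The deposited matrices hold these counts as raw whole numbers, without normalization, for 83605 features. The submitters' processing notes name Cell Ranger 5.0.1 and 7.0.1, the headers 6.1.2 and 7.0.1, and whether intronic reads were counted is not given in the sources used here. Genes are named by the symbols of the matrices, with no positions, and no genome sequence was used here. The members and gene lists were chosen with earlier results of these data known.

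Counts of member nuclei were summed per retina and tested with edgeR 4.0.16 in R 4.3.3 (TMM factors, filterByExpr, quasi-likelihood F-test, Benjamini-Hochberg adjustment at 0.05) with stage and labelled sex as terms. A fit on members and other nuclei, with the retina as block and terms for stage and sex in each population, tested differences between populations, and a fit with the retina as block compared members with PAX2-gated astrocytes. The CPM of each fit use its own TMM factors, so they differ slightly between fits, and marker sums use total counts. The shares of members were tested by permuting retinas exactly (252 splits) and markers by exact sign-flips. Per direction, the 10 genes with the largest change were named among those that were called, did not overlap between stages (or differed in the same direction in every retina), reached 10 CPM and had a symbol of their own, together with every called gene of the lists. Other genes of the lists are given as values. Genes named from clusters lead their cluster. Doublets were called from simulated pairs at 8 per 1000 nuclei for each 1000 nuclei of a retina, and kept. Clusters came from leidenalg 0.10.2 in Python 3.11.15.

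In simulated data of the same design the stage fit found 88% of 4-fold and 38% of 2-fold changes with 5 false calls among 8627 genes, the interaction fit 74% and 6% with 3 among 24316, and the astrocyte fit 94% and 95% with 6 among 2862. The simulated counts had the same spread for every gene and no effects of sex, version or retina. These shares and false calls therefore need not hold for the real counts. For the astrocyte fit the changed genes were drawn only from genes with many astrocyte counts. Its shares therefore do not hold for all genes tested and are not comparable with those of the stage fit. Alternatives were DESeq2 1.42.0, RLE factors, no filter, no sex, header version or replicate number in place of sex, stricter member rules, no doublets, equal totals and leaving out each retina. The interaction fit was also run with other nuclei without a UMI of RLBP1, WIF1, TF and CHRDL1. Left out are labels of single animals other than stage and sex. Results of 2 genes are not reported here.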

Additional observations from a re-analysis of the deposited data

Results flagged for a closer look

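Of 96 groups of 5 retinas examined, 7 held a highest or lowest retina whose gap to the next exceeded 0.71 of the whole range, and chance alone gives about 1 in 20. Crystallin RNA in members stood at 29912 CPM in Infancy 4 against 29.9 to 5717 CPM in the other infancy retinas, and at 10503 CPM in Mature 4 against 32.4 to 81.7 CPM in the other mature retinas. ADAMTS19 stood at 1166 CPM in Infancy 5 against 606 to 670.1 CPM in the other infancy retinas. ATP2B4 was low in Infancy 3, at 30.9 CPM against 54.3 to 60.1 CPM, and PDE1C was high in Infancy 2, at 149 CPM against 64.0 to 87.9 CPM. H2BC21 stood at 85.6 CPM in Mature 3 against 26.0 to 38.7 CPM in the other mature retinas, and IGF2BP2 at 65.5 CPM in Senile 1 against 24.3 to 35.7 CPM in the other senile retinas.

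The stage change differed between Müller glia and the other nuclei in 46 genes for senile minus infancy and in 18 genes for mature minus infancy, by the interaction test of edgeR. FBN2, SLC35F1, ALCAM, H2BC21, ADRB1, CCDC3, PDE1C and HS3ST4 for the first change, and FBN2, NMNAT3, ADRB1, CCDC3, PDE1C and LRRTM4 for the second, were called in 15 of 15 fits with 1 retina left out and without the sex term.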

How the results depend on the processing

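The share of Müller glia stayed below that of infancy in the later stages under the alternatives tried, all of which kept the excluding genes. No difference was called at an adjusted p of 0.05, but the size moved. With at least 2 RLBP1 UMIs the mature minus infancy difference was -0.0526 points in place of -0.467, and the senile minus mature difference -0.454 in place of -0.0944 (-0.510 with 2 of GLUL, SLC1A3 and AQP4). With nuclei thinned to 1000 UMIs these differences were -0.291 and -0.314 points. The difference between senile and mature retinas did not keep its sign: it was 0.285 points without the 3 crystallin-rich retinas and ran from -0.467 (without Senile 4) to 0.285 (without Mature 4) when 1 retina was left out. The senile minus infancy difference ran from -0.934 (without Senile 4) to -0.231 points (without Senile 2), and the mature minus infancy difference from -0.847 (without Mature 4) to -0.175 (without Mature 2). Excluding genes removed 85 (Senile 2) to 959 (Senile 5) nuclei of a retina that met both positive criteria, beside 148 and 335 members. The effect of this part of the rule on the stage differences was not tested.

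Of 78 genes called between senile and infancy retinas, the count became 297 without a filter on low counts, 48 without sex, 44 with at least 2 RLBP1 UMIs, 27 with equal totals and 45 without the crystallin-rich retinas, and it ran from 50 (without Senile 5) to 92 (without Mature 4). Of 78 between mature and infancy retinas, it became 133 with DESeq2, 334 without the filter, 32 without sex, 35 with at least 2 RLBP1 UMIs, 50 with 2 of GLUL, SLC1A3 and AQP4 and 17 with equal totals. It ran from 27 (without Infancy 4) to 77 (without Senile 4), with 40, 50 and 38 without Infancy 1, 2 and 3, and 43 and 47 without Mature 1 and 2. Of 7 between senile and mature retinas, it became 27 with DESeq2, 139 without the filter, 0 without sex, 2 with the header version, 2 with at least 2 RLBP1 UMIs, 1 with equal totals and 11 in the 2 largest clusters, and it ran from 0 (without Infancy 1, among others) to 12 (without Mature 5). Equal totals keep fewer UMIs and a fit without filter tests more genes; the causes of the other shifts were not tested.

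Of 46 genes with a different senile minus infancy change, the count became 16 with DESeq2, 136 without the filter, 12 without the sex term, 171 in the 2 largest clusters and 93 without the crystallin-rich retinas, and ran from 20 (without Senile 5) to 144 (without Mature 4), with 73 without Infancy 4, 71, 79 and 70 without Mature 1, 3 and 5, and 80 without Senile 2. Of 18 for mature minus infancy, it became 7, 97, 9, 127 and 38 in the same order and 33 without doublets, and ran from 16 (without Infancy 1) to 71 (without Mature 5), with 31 without Infancy 5, 32, 28 and 45 without Mature 1, 3 and 4, and 39 and 41 without Senile 2 and 3. In the members of the 2 largest clusters the difference of ADARB2 turned to -1.48 and that of VWC2 to -0.59. The astrocyte comparison gave 4891 genes without the filter in place of 1433. The number of identity markers higher in members was 12 also with a pseudocount of 10 CPM and without doublets. RGR was called lower without doublets, but at a level too low for this call to be read.

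No source says that a replicate number marks a shared litter, batch or day. Deviations of same-numbered retinas correlated at -0.232 to 0.370 (median 0.178, against -0.127 for other numbers), above 0.1 in 12 of 15 pairs and not in all, so the numbers were not taken to pair the retinas, and 4 of 15 retinas correlated best with their own number. With the replicate block in place of sex, 84, 49 and 0 genes were called between senile and infancy, mature and infancy, and senile and mature retinas. Of 1953 single gene values under alternatives, 1558 had the same direction and side of the threshold, 392 lost their call, 1 gained it and 2 reversed. Depth limits genes under about 10 CPM, since the smallest retina holds 147640 member UMIs.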
